A study of Mus musculus with 6 samples.

Results

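B cell identity genes were examined in visceral fat, the adipose tissue of the abdominal cavity, of mice lacking nuclear myosin 1 (NM1 KO) and of wild-type mice (WT). The 9 genes, taken by symbol, were Cd79a, Cd79b, Ms4a1, Cr2, Fcer2a, Pax5, Blk, Cd22 and Bank1, out of 46603 gene identifiers counted per library. All 9 passed the filter on low counts, with 15828 genes tested in all. RNA was sequenced from 3 NM1 KO and 3 WT libraries of C57/Bl6 mice, all 18 months old and untreated. Nuclear myosin 1 is an isoform made from Myo1c that acts in transcription and chromatin organization. The sources used here do not say how the NM1 KO allele was made, whether it is restricted to some cells, or which sex the mice were. The labels number the replicates without tying each to its own animal, so every p-value reflects variation among these 6 samples, part of which may be technical.

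B cells are the lymphocytes that make antibodies. They read antigen through a receptor in which a membrane immunoglobulin is paired with the signalling chains encoded by Cd79a and Cd79b, and co-receptors raise or lower the strength of that signal. The transcription factor Pax5 holds cells in the B lineage and is lost when they become antibody-secreting plasma cells. In visceral fat, B cells lie scattered in the stroma and in small lymphoid clusters, and their number grows with age in mice.

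The depth was 27525446 to 33537818 counts per NM1 KO library and 24677758 to 31228723 per WT library. Of all tested genes 673 differed, 441 higher (2.79%) and 232 lower (1.47%) in NM1 KO (edgeR quasi-likelihood test, adjusted p under 0.05, here called), and leaving out 1 library gave between 1 and 1654 calls. Fat cell genes were high, as the tissue label has it, with Adipoq, which encodes adiponectin, at 1818, 2360 and 2217 CPM (counts per 1000000) in NM1 KO replicates 1 to 3 and 2397, 2549 and 2487 CPM in WT replicates 1 to 3. The targeted locus Myo1c had 452, 697 and 551 CPM in NM1 KO replicates 1 to 3, against 801, 759 and 801 CPM in WT replicates 1 to 3. Its log2 fold change (NM1 KO minus WT throughout) was -0.47 ± 0.17 (SE), not called by edgeR with an adjusted p of 0.151, and since the count covers every isoform it does not check the knockout. It was called lower by edgeR without NM1 KO replicate 2 (log2 -0.65, adjusted p = 0.0391) and by limma-voom (log2 -0.54, adjusted p = 0.0382).

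For 3 genes the sequence before the start site is shown, because they mark the extremes of what follows: Cd79a had the highest level per length, Pax5 the widest spread among NM1 KO libraries and Bank1 the narrowest. RefSeq promoter entries (GRCm38.p6) were matched for 6 of the 9 genes. Each line holds the 250 bases before the RefSeq start, 5′ to 3′ on the gene's strand. Capitals mark AGGAAG, the core bound by ETS factors, or CCCNNGGG, the core bound by EBF1, on either strand, and the 2 kinds of match did not overlap.
Cd79a, chr7:24897247-24897496, plus strand: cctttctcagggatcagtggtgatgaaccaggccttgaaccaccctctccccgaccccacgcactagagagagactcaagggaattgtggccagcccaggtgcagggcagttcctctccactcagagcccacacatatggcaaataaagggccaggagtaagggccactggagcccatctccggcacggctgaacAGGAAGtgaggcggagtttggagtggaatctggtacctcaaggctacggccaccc
Pax5, chr4:44710695-44710944, minus strand: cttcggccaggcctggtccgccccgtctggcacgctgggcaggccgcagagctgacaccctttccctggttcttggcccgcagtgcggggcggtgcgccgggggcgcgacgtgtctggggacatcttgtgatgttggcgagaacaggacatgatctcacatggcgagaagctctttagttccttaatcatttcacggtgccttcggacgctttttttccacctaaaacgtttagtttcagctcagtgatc
Bank1, chr3:136326067-136326316, minus strand: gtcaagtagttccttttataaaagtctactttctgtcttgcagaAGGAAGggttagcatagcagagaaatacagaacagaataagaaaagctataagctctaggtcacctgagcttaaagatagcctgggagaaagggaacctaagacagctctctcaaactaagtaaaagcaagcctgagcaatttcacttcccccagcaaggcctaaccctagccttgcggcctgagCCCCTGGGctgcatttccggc
The Cd79a window held 1 AGGAAG, Bank1 held 1 AGGAAG and 1 CCCNNGGG, and Pax5 held neither. RefSeq and GENCODE M21 place the starts of Cd79a and Pax5 differently. The GENCODE start of Cd79a, 24897381, falls inside the Cd79a window, so its AGGAAG lies within the gene as GENCODE annotates it. The Pax5 window does not reach the GENCODE start of Pax5, 44710487, and the bases between them were not searched. AGGAAG occurred in 29.5% and CCCNNGGG in 11.8% of all 32851 promoter windows of the same length. The octamer ATTTGCAT, read by Oct factors, lay in 1.6% of all windows and in none of the 3 shown. The motifs were chosen after the promoters had been read, and a match describes letters only.

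The B cell genes were high in a single library. In NM1 KO replicate 1 every one of the 9 stood above all other libraries, which held for 24.7% of all tested genes, and 8 of the 9 exceeded the highest other library more than 2-fold, which held for 1.95%. NM1 KO replicates 2 and 3 were both below every WT library for 4 of the 9 genes (Cd79a, Ms4a1, Blk and Bank1), against 17.5% of all tested genes. None of the 9 was called by edgeR, against 4.25% of all genes, and no gene had groups that did not overlap, against 29.9%. In bulk RNA, fewer cells of a type and less RNA per cell cannot be told apart.

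The receptor's signalling chains had the highest mean levels per kilobase of exon among the 9 genes. Cd79a (ENSMUSG00000003379, chromosome 7, 24897381 to 24902197) had 2354, 465 and 219 counts in NM1 KO replicates 1 to 3, against 609, 1057 and 440 counts in WT replicates 1 to 3. On library sizes scaled by TMM this was 75.8, 14.2 and 7.98 CPM in NM1 KO, against 22.5, 33.8 and 17.6 CPM in WT. The first NM1 KO library was thus above, and the other NM1 KO libraries below, every WT library. Its partner Cd79b (ENSMUSG00000040592, chromosome 11, 106311341 to 106314762) had 51.3, 11.7 and 6.34 CPM in NM1 KO replicates 1 to 3, against 13.8, 25.2 and 11.2 CPM in WT replicates 1 to 3. The same library was highest, and NM1 KO replicate 2 fell inside the WT range. Means were 32.6 ± 37.5 CPM in NM1 KO and 24.6 ± 8.29 CPM in WT for Cd79a, and 23.1 ± 24.6 CPM in NM1 KO and 16.7 ± 7.48 CPM in WT for Cd79b (SD, n = 3 each). The log2 fold changes were 0.41 ± 0.77 for Cd79a and 0.46 ± 0.74 for Cd79b (SE), with adjusted p of 0.786 and 0.740 in edgeR's quasi-likelihood test.

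Genes for proteins that carry the signal inside the cell were again highest in NM1 KO replicate 1, with different spreads. Blk (ENSMUSG00000014453, chromosome 14, 63372836 to 63417037), a Src-family kinase of B cells, had 30.7, 5.16 and 3.61 CPM in NM1 KO replicates 1 to 3, against 6.29, 13.2 and 9.06 CPM in WT replicates 1 to 3. NM1 KO replicates 2 and 3 were both below every WT library. Bank1 (ENSMUSG00000037922, chromosome 3, 136053363 to 136326066), a scaffold protein that links the receptor to calcium release, had 25.7, 8.36 and 9.69 CPM in NM1 KO replicates 1 to 3, against 11.0, 13.0 and 13.1 CPM in WT replicates 1 to 3. Its highest and lowest NM1 KO libraries differed 3.07-fold, the least of the 9 genes, and its WT libraries differed 1.19-fold. The log2 fold changes were 0.47 ± 0.78 for Blk and 0.24 ± 0.42 for Bank1 (SE), with adjusted p of 0.755 and 0.767 in edgeR's test.

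Among the surface proteins, Ms4a1 and Cd22 were the best covered. Ms4a1 (ENSMUSG00000024673, chromosome 19, 11249675 to 11266241), which encodes CD20, had 53.4, 5.43 and 4.15 CPM in NM1 KO replicates 1 to 3, against 11.8, 19.5 and 11.8 CPM in WT replicates 1 to 3. Its highest and lowest NM1 KO libraries differed 12.9-fold, and means were 21.0 ± 28.1 CPM in NM1 KO and 14.4 ± 4.43 CPM in WT (SD, n = 3 each). Cd22 (ENSMUSG00000030577, chromosome 7, 30865402 to 30880342), a sialic acid-binding lectin that dampens receptor signalling, had 44.6, 9.06 and 9.04 CPM in NM1 KO replicates 1 to 3, against 5.73, 12.5 and 7.13 CPM in WT replicates 1 to 3. NM1 KO replicates 2 and 3 lay inside the WT range for Cd22, unlike for Ms4a1, where they lay below it. The log2 fold changes were 0.55 ± 0.92 for Ms4a1 and 1.30 ± 0.67 for Cd22 (SE), with adjusted p of 0.754 and 0.291 in edgeR's test.

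Cr2 and Fcer2a were low. Cr2 (ENSMUSG00000026616, chromosome 1, 195136811 to 195176716) encodes complement receptors found on B cells and on follicular dendritic cells. It had 88, 8 and 12 counts in NM1 KO replicates 1 to 3, against 4, 14 and 8 counts in WT replicates 1 to 3. The exact 95% Poisson interval of the 88 counts was 70.6 to 108, and those of the other 5 libraries all lay between 1.09 and 23.5, so the first NM1 KO library stood apart beyond counting error while the rest could not be ordered at this depth. Fcer2a (ENSMUSG00000005540, chromosome 8, 3681737 to 3694175), the low-affinity IgE receptor CD23 of mature B cells, had 248, 96 and 33 counts in NM1 KO replicates 1 to 3, against 24, 75 and 57 counts in WT replicates 1 to 3. In CPM this was 7.98, 2.93 and 1.20 in NM1 KO, against 0.888, 2.40 and 2.28 in WT, and NM1 KO replicate 2 also exceeded every WT library. The log2 fold changes were 1.92 ± 0.98 for Cr2 and 1.12 ± 0.70 for Fcer2a (SE), with adjusted p of 0.284 and 0.377 in edgeR's test. Intervals cover counting error only.

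Pax5 (ENSMUSG00000014030, chromosome 4, 44524757 to 44710487), the lineage transcription factor, had 38.5, 5.77 and 2.84 CPM in NM1 KO replicates 1 to 3, against 4.73, 5.66 and 4.33 CPM in WT replicates 1 to 3. The WT libraries were close together, differing 1.31-fold, while the NM1 KO libraries differed 13.5-fold, with replicate 2 just above and replicate 3 below the WT range. NM1 KO replicate 1 was 6.67-fold above the highest other library, the largest such excess among the 9. Means were 15.7 ± 19.8 CPM in NM1 KO and 4.91 ± 0.682 CPM in WT (SD, n = 3 each). The log2 fold change was 1.68 ± 0.88 (SE), with an adjusted p of 0.297 in edgeR's test. Exons of Pax5 overlap the antisense gene Gm12462 over 125 bases and 5730488B01Rik over 636 bases, and exons of Cd22 overlap Gm29439 over 479 bases. The sources used here do not state the strand setting of the counting, so reads of these pairs cannot be told apart.

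**Figure D1:**
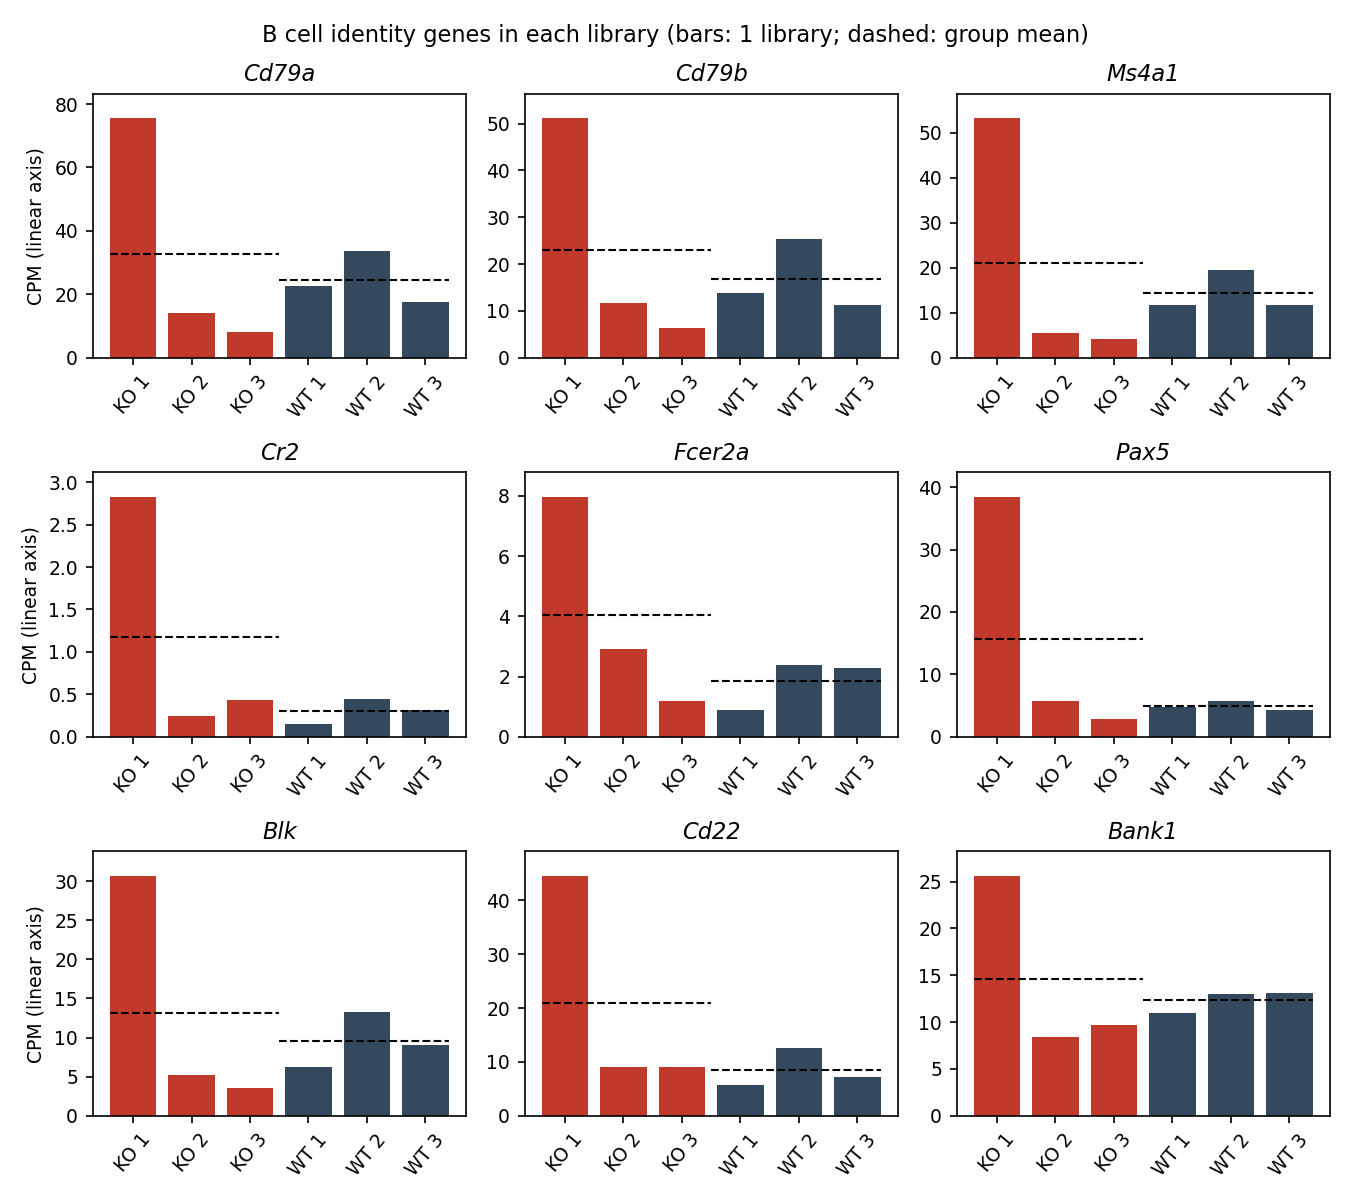
CPM of each of the 9 B cell genes (linear axes from 0) in NM1 KO libraries 1 to 3 (red) and WT libraries 1 to 3 (dark grey); each bar is 1 library and dashed lines are group means. The first NM1 KO library is the highest bar in all 9 panels, from 2.83 CPM for Cr2 to 75.8 CPM for Cd79a.

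Put on one scale, the median of the 9 genes relative to the WT mean, as log2(CPM + 0.5), was 1.90, -0.42 and -0.69 in NM1 KO replicates 1 to 3 and -0.24, 0.47 and -0.16 in WT replicates 1 to 3. The medians over all tested genes lay within 0.011 of 0 in the 6 libraries. The summed level of the 9 genes was 331, 62.8 and 45.3 CPM in NM1 KO replicates 1 to 3, against 76.8, 126 and 76.9 CPM in WT replicates 1 to 3. WT also held an uneven library: WT replicate 2 was the highest WT library for 8 of the 9 genes, against 35.9% of all tested genes, the exception being Bank1. NM1 KO replicate 3 was the lowest of the 6 libraries for 5 genes (Cd79a, Cd79b, Ms4a1, Pax5 and Blk), against 12.9% of all tested genes.

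**Figure D2:**
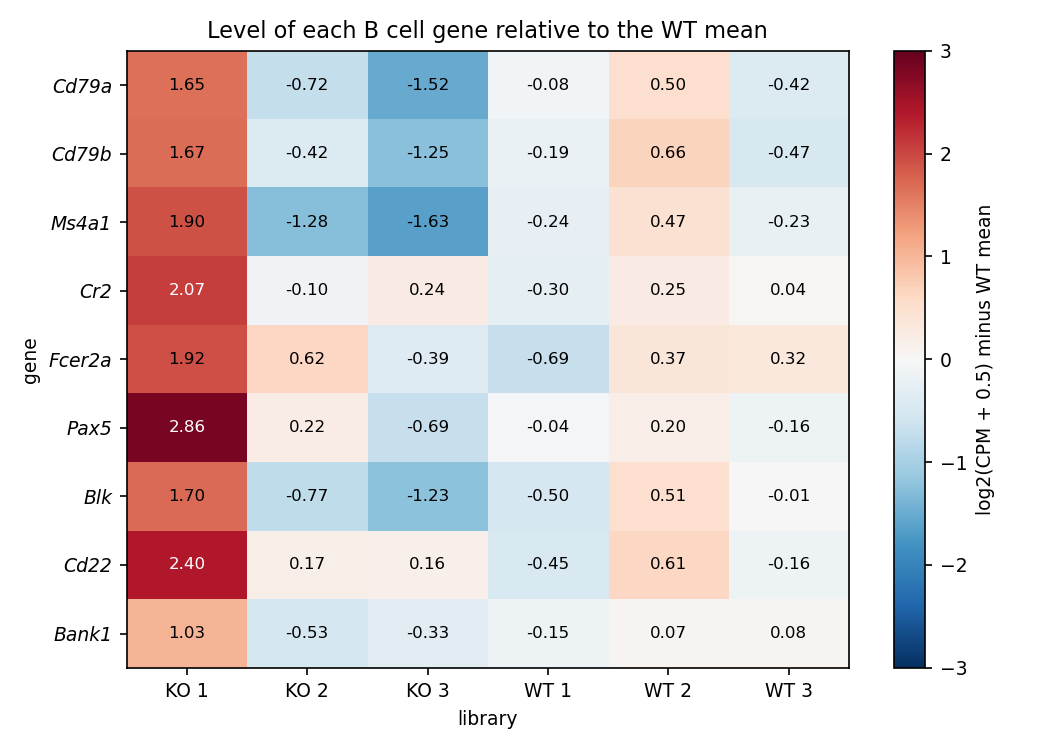
Log2(CPM + 0.5) of each B cell gene minus its WT mean, by library, with NM1 KO on the left; red is above and blue below the WT mean. The column of NM1 KO replicate 1 runs from 1.03 for Bank1 to 2.86 for Pax5, and Ms4a1 is the lowest gene in NM1 KO replicates 2 and 3, at -1.28 and -1.63.

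All 9 fitted log2 fold changes were positive, against 49.7% of all tested genes, and 6 of them turned negative without NM1 KO replicate 1. None of the 9 had an unadjusted p under 0.05 in edgeR, against 23.7% of all genes. DESeq2 called 0 of the 8 to which it gave an adjusted p, against 12.9% of all genes. Unadjusted, Cr2 alone was under 0.05 in DESeq2, against 16.6% of all genes. Limma-voom called 0 of 9, against 10.4%, gave an unadjusted p under 0.05 to 0 of 9, against 30.4%, and a negative log2 fold change to 5 of 9, against 50.5%. Without NM1 KO replicate 1 the median log2 fold change of the 9 genes was -0.44, against 0.55 with all libraries, and the 6 negative genes compared with 49.2% of all genes. Ms4a1 then had a log2 fold change of -1.56 ± 0.30 (SE) with an adjusted p of 0.0659 in edgeR, the lowest adjusted p of any of the 9 genes in any fit. Cd79a stood at -1.13 ± 0.36 and Blk at -1.10 ± 0.36, with adjusted p of 0.177 and 0.196 in the same edgeR fit. These 3 had an unadjusted p under 0.05 in it, against 16.8% of all genes, and none of the 9 was called, against 1.51% of all genes. Cr2, Fcer2a and Cd22 kept positive values of 0.15, 0.17 and 0.11. No other edgeR fit called any of the 9 either. All genes were called at 4.13%, 4.07% and 4.19% with relative log expression factors, upper-quartile factors and library totals. With library sizes and TMM factors computed without immunoglobulin genes, all genes were called at 4.21%. They were called at 3.47% with no filter, 4.72% with a CPM filter, 4.37% with non-robust dispersion, 4.45% among protein-coding genes, 4.58% with an offset for GC content and length, and 2.12% with the replicate number as a block. Without NM1 KO replicate 2 or 3 the share was 10.2% or 0.0304%, and without WT replicate 1, 2 or 3 it was 0.225%, 0.0247% or 0.00608%.

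**Figure D3:**
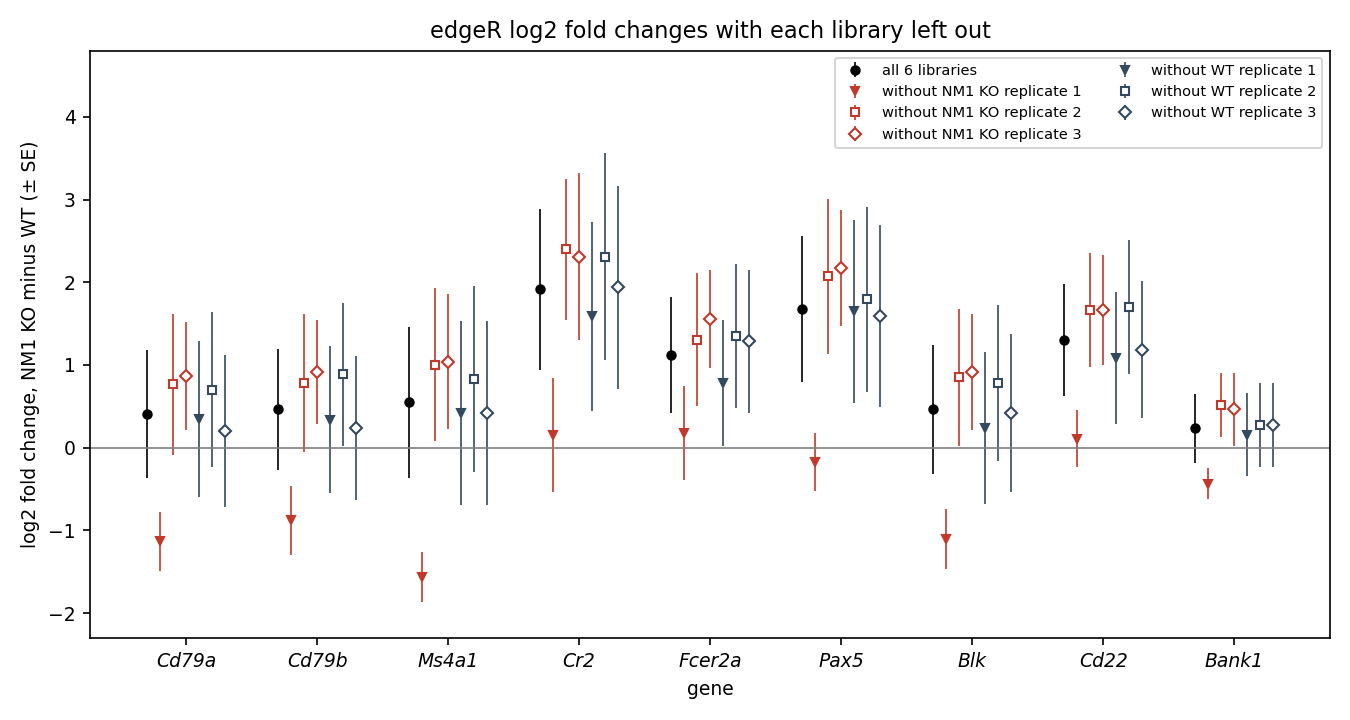
Log2 fold change (NM1 KO minus WT, edgeR, bars ± SE) of each B cell gene with all 6 libraries (black) and with each library left out (red, an NM1 KO library; dark grey, a WT library). The red filled triangles, without NM1 KO replicate 1, lie lowest for every gene, at -1.56 for Ms4a1 and 0.11 for Cd22.

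The genes did not keep fixed proportions between libraries. Of the summed CPM of the 9 genes, Pax5 took 11.6%, 9.18% and 6.27% in NM1 KO replicates 1 to 3, against 6.16%, 4.50% and 5.63% in WT replicates 1 to 3. Cd22 took 13.5%, 14.4% and 19.9% in NM1 KO, against 7.46%, 9.96% and 9.28% in WT. Cd79a took 22.9%, 22.6% and 17.6% in NM1 KO, against 29.3%, 26.9% and 22.9% in WT. For these 3 of the 9 genes the shares did not overlap between the groups, by narrow margins for Pax5 and Cd79a. In CPM, groups did not overlap for 29.9% of all tested genes. Shares of a sum were not computed for other genes. Ms4a1 took 16.1%, 8.65% and 9.17% in NM1 KO replicates 1 to 3 and 15.3%, 15.5% and 15.4% in WT, so its share was below WT in NM1 KO replicates 2 and 3. With 3 against 3 libraries an exact permutation test cannot give a p under 0.1, and none was run on these shares, which sum to a fixed total and are not independent.

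**Figure D4:**
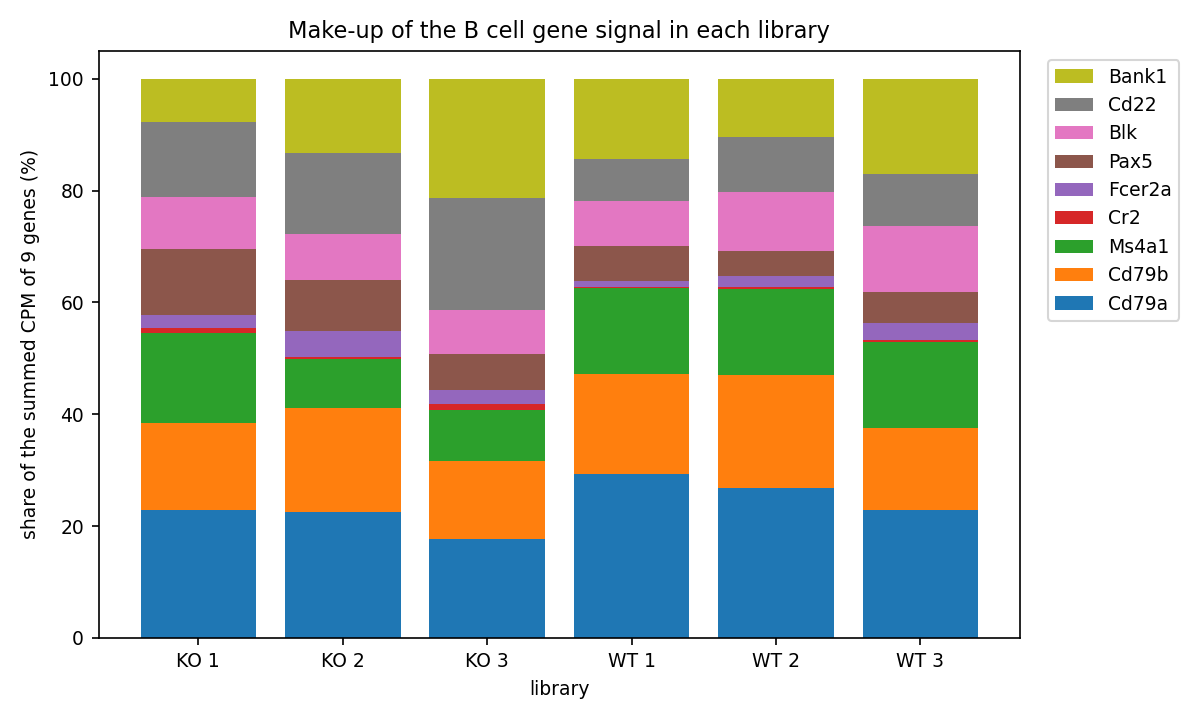
Share of the summed CPM of the 9 genes (percent, stacked to the full total) taken by each gene in NM1 KO libraries 1 to 3 and WT libraries 1 to 3. The Cd22 band is wider in every NM1 KO library, at 13.5% to 19.9%, than in any WT library, at 7.46% to 9.96%.

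Between genes, levels were compared per kilobase of annotated exon (RPKM computed here). Cd79a led with 52.0, 9.74 and 5.48 RPKM in NM1 KO replicates 1 to 3 and 15.5, 23.2 and 12.1 RPKM in WT replicates 1 to 3. Cd79b came next and was below Cd79a and above Blk in 6 of 6 libraries. Blk was above Cd22 in 5 of 6. Per kilobase, Cd22 was above Ms4a1 in all 3 NM1 KO libraries, at 8.85, 1.80 and 1.79 RPKM against 8.64, 0.878 and 0.671 RPKM for Ms4a1. It was the lower in all 3 WT libraries, at 1.14, 2.48 and 1.42 RPKM against 1.90, 3.15 and 1.91 RPKM for Ms4a1. Their difference was small in NM1 KO replicate 1, where the order depended on exon length. There Ms4a1 had the higher CPM, at 53.4 against 44.6 CPM for Cd22. The difference was not tested. Ms4a1 was above Bank1 in 4 of 6. Pax5, although higher by mean, exceeded Fcer2a in 2 of 6 libraries, so these were not separated. Cr2 was last in all 6, at 0.0301 to 0.349 RPKM in NM1 KO and 0.0182 to 0.0552 RPKM in WT.

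Most other genes of the B lineage were also highest in NM1 KO replicate 1. Among 19 further B cell genes 18 were tested. Calls numbered 0 by edgeR, 1 by DESeq2 and 0 by limma-voom, and 2 genes were under 0.05 unadjusted in edgeR. Beside this and every later list, all genes were called at 4.25% by edgeR, 12.9% by DESeq2 and 10.4% by limma-voom. Unadjusted, 23.7% of all genes were under 0.05 in edgeR. The median log2 fold change of the 18 was 0.63, against -0.002 over all tested genes. Of the 18, 17 were highest in NM1 KO replicate 1, against 24.7% of all tested genes. Ebf1, a B cell transcription factor that fat cells also express, was the exception, at 125, 120 and 170 CPM in NM1 KO and 181, 124 and 185 CPM in WT. For 3 of the 18 the groups did not overlap, against 29.9% of all tested genes, counted in either direction. In these 3 every NM1 KO library exceeded every WT library. They were Cd180, a Toll-like receptor homologue of B cells and myeloid cells, and, named after their values were seen, Bach2 and Ralgps2. The margin for Ralgps2 was narrow, at 11.23 CPM in NM1 KO replicate 2 against 11.16 CPM in WT replicate 2. Cd180 had 54.7, 24.8 and 23.5 CPM in NM1 KO and 14.4, 6.33 and 10.9 CPM in WT (edgeR log2 1.71 ± 0.42 SE, adjusted p = 0.0683). Cd37, a tetraspanin of leukocytes, had 154, 72.0 and 63.3 CPM in NM1 KO and 86.5, 71.8 and 87.8 CPM in WT. Genes of B cell precursors were absent or scarce: Rag1, Rag2 and Igll1, needed to build the receptor, had no count in any library, which allows up to 3 counts per library (one-sided 95% limit). Cd93, which endothelial and myeloid cells also make, was the only 1 of 6 precursor genes to be tested and was not called by edgeR (adjusted p = 0.0814).

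Genes of receptor signalling, most of them shared with myeloid cells, had 2 of 18 called by edgeR, both higher, against 2.79% of all genes called higher, with a median log2 fold change of 0.43. In the same list 8 were under 0.05 unadjusted in edgeR, and DESeq2 called 5 and limma-voom 3. Pik3ap1, an adaptor for phosphoinositide 3-kinase, rose to 77.0, 52.5 and 43.0 CPM in NM1 KO replicates 1 to 3, against 21.7, 16.5 and 17.5 CPM in WT replicates 1 to 3 (edgeR log2 1.63 ± 0.23 SE, adjusted p = 0.0226). Prkcb, a protein kinase C, rose to 46.1, 19.7 and 20.5 CPM in NM1 KO, against 9.02, 9.40 and 9.30 CPM in WT (edgeR log2 1.64 ± 0.34 SE, adjusted p = 0.0457). For both, every NM1 KO library exceeded every WT library. Neither was called by edgeR without WT replicate 1, 2 or 3 or without NM1 KO replicate 3, with adjusted p of 0.0575 to 0.0992 for Pik3ap1 and 0.0797 to 0.158 for Prkcb. Prkcb was also not called with relative log expression factors (adjusted p = 0.0504), library totals (0.0521) or the replicate block (0.0748) in edgeR. Of 10 macrophage genes DESeq2 called 6 and limma-voom 5, and 6 were under 0.05 unadjusted in edgeR. The summed level of the 10, to which Lyz2 gave the most, was 5352 to 6449 CPM in NM1 KO and 2694 to 3784 CPM in WT, and none was at 0. By edgeR 3 of the 10 macrophage genes were called higher (Adgre1, Cd68 and Lyz2) and 7 were not called. Without WT replicate 2 or 3 or NM1 KO replicate 3 none of these 3 was called, with edgeR adjusted p of 0.0575 to 0.115. In edgeR Lyz2 also lost its call when replicate 1 of WT (adjusted p = 0.0969) or of NM1 KO (0.0753) was left out, and with the replicate block (0.0596) or the offset for GC content and length (0.0568). Their part in these 2 results was not tested. Among 10 genes of innate-like and age-associated B cells 1 was called: Itgax, an integrin that macrophages and dendritic cells also carry, rose to 171, 108 and 61.7 CPM in NM1 KO, against 25.9, 12.8 and 7.53 CPM in WT (edgeR log2 2.88 ± 0.53 SE, adjusted p = 0.0350). It was not called without WT replicate 1, 2 or 3 or NM1 KO replicate 1 or 3, with adjusted p of 0.0595 to 0.117, nor with no filter on low counts (adjusted p = 0.135).

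Of 6 germinal centre genes 4 were tested, with calls for 0 by edgeR, 1 by DESeq2 and 0 by limma-voom, and 1 under 0.05 unadjusted in edgeR. Of 10 plasma cell genes 0 were called by edgeR, 3 by DESeq2 and 0 by limma-voom, and 3 were under 0.05 unadjusted in edgeR. Their median log2 fold change was -0.18. Jchain, which joins immunoglobulin polymers, had 241, 14.2 and 92.9 CPM in NM1 KO replicates 1 to 3, against 96.0, 214 and 68.4 CPM in WT replicates 1 to 3. NM1 KO replicate 2 was the lowest library here, as for Bank1 but none of the other 8 B cell genes, and WT replicate 2 was close to NM1 KO replicate 1.

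Immunoglobulin constant genes had 1 of 10 tested members called by edgeR, against 4.25% of all genes. Ighm, the heavy chain of IgM, had 2925, 747 and 1202 CPM in NM1 KO replicates 1 to 3, against 1138, 2064 and 921 CPM in WT replicates 1 to 3, and Igkc, the kappa light chain, 1460, 72.1 and 592 CPM in NM1 KO, against 244, 895 and 445 CPM in WT. Ighd, the IgD chain of mature naive B cells, had 44.0, 13.2 and 5.28 CPM in NM1 KO, against 2.85, 6.52 and 8.86 CPM in WT (edgeR adjusted p = 0.217). The called gene was Ighg2c, with 1767, 174 and 509 counts in NM1 KO replicates 1 to 3, against 3, 2 and 6 counts in WT replicates 1 to 3. Every NM1 KO library exceeded every WT library for it (edgeR log2 7.61 ± 1.12 SE, adjusted p = 0.0240), and it was not called without WT replicate 1, 2 or 3 or without NM1 KO replicate 3 (adjusted p of 0.0644 to 0.0992), with no filter on low counts (0.0836) or by limma-voom (0.0594). Ighg1, named after its values were seen, had 4986, 0 and 8 counts in NM1 KO, against 0, 0 and 3 counts in WT, and did not pass the filter on low counts. Constant genes of the IgG subclasses are alike in sequence, so reads between them are uncertain.

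Signals that attract and sustain B cells had 16 tested genes of 18, with calls for 0 by edgeR, 3 by DESeq2 and 0 by limma-voom, and 3 under 0.05 unadjusted in edgeR. Tnfsf13b, the survival factor BAFF, had 5.25, 4.09 and 5.61 CPM in NM1 KO replicates 1 to 3, against 5.14, 2.94 and 5.37 CPM in WT replicates 1 to 3. Cxcl13, the chemokine that draws B cells into follicles, had 19.8, 7.90 and 7.91 CPM in NM1 KO, against 2.85, 30.8 and 10.5 CPM in WT. Both sets overlapped, and the highest Cxcl13 value was in WT replicate 2. Of 8 genes of lymphoid tissue stroma 7 had an identifier, 5 were tested, and calls numbered 0 by edgeR, 1 by DESeq2 and 0 by limma-voom, with 1 under 0.05 unadjusted in edgeR. Their summed level was 22.7 to 38.3 CPM in NM1 KO and 34.9 to 63.4 CPM in WT, Glycam1 was at 0 in all libraries and Madcam1 did not pass the filter.

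Markers of other lymphocytes were read in the same libraries. The 17 T cell genes summed to 107, 36.4 and 84.7 CPM in NM1 KO replicates 1 to 3, against 45.7, 53.7 and 45.5 CPM in WT replicates 1 to 3, and none was at 0 throughout. Of these, 0 were called by edgeR, 3 by DESeq2 and 0 by limma-voom, against 4.25%, 12.9% and 10.4% of all genes. Unadjusted, 4 of the 17 were under 0.05 in edgeR, against 23.7% of all genes. In NM1 KO replicate 1, 13 of the 17 were at their highest, against 24.7% of all tested genes. Cd3e, a chain of the T cell receptor complex, had 4.15, 1.43 and 3.94 CPM in NM1 KO, against 1.63, 2.65 and 2.93 CPM in WT. The 8 NK cell genes summed to 19.1, 7.08 and 26.6 CPM in NM1 KO and 5.69, 6.75 and 7.57 CPM in WT, with calls for 0 of 7 tested by edgeR, 2 by DESeq2 and 1 by limma-voom, and 3 under 0.05 unadjusted in edgeR. NM1 KO replicate 3 was above every WT library in the summed level of T and of NK cell genes and below every WT library in that of the 9 B cell genes. Plasmacytoid dendritic cell genes summed to 2.03 to 3.02 CPM in NM1 KO and 1.15 to 2.59 CPM in WT, and other dendritic cell genes to 24.9 to 45.0 CPM in NM1 KO and 49.0 to 70.2 CPM in WT, with 0 called by edgeR in either list and 1 of 3 and 2 of 5 tested genes under 0.05 unadjusted. DESeq2 called 0 and 1 and limma-voom 0 and 1 of these. Most of the sum of the other dendritic cell genes came from Zbtb46 and Cd209a, and members differed in direction. Of those 5 genes 2 had a positive log2 fold change, against 49.7% of all tested genes. Xcr1 had 1.83, 1.56 and 1.82 CPM in NM1 KO replicates 1 to 3, against 0.74, 0.83 and 0.48 CPM in WT replicates 1 to 3. The 8 fat cell genes summed to 20720 to 24950 CPM in NM1 KO and 22270 to 24200 CPM in WT. Of these, 0 were called by edgeR, 2 by DESeq2 and 0 by limma-voom, with 2 under 0.05 unadjusted in edgeR. The sums include Lep, with 4578, 4737 and 3722 CPM in NM1 KO, against 2939, 1363 and 1538 CPM in WT. Adipoq, Lipe and Pnpla2 were instead lower in every NM1 KO library than in any WT library. Groups did not overlap, in either direction, for 29.9% of all tested genes. Of the 8, 2 had a positive log2 fold change, against 49.7% of all tested genes. The part of these cell types in the B cell values was not tested.

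**Figure D5:**
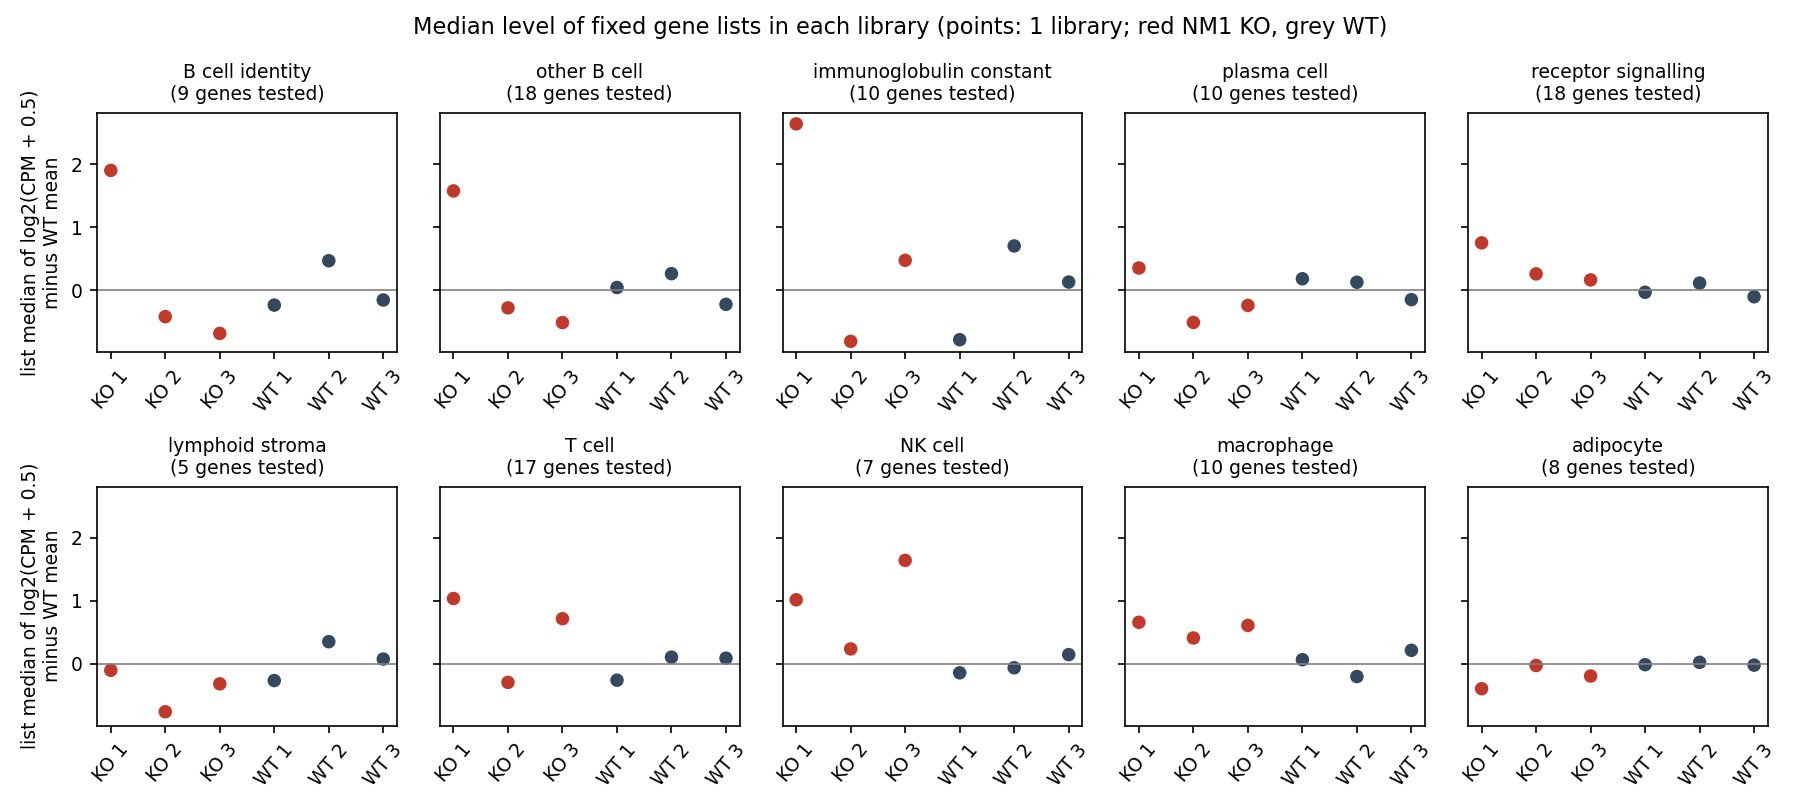
Median over the tested genes of each list of log2(CPM + 0.5) minus the WT mean, by library, with NM1 KO (red) left of WT (dark grey); each point is 1 library. In NM1 KO replicate 1 the medians are 1.90 for the 9 B cell genes, 1.57 for other B cell genes, 2.64 for immunoglobulin constant genes, 1.03 for T cell genes and 1.01 for NK cell genes; in NM1 KO replicate 3 the NK cell median is 1.64 and that of the 9 B cell genes is -0.69.

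Among 13815 other protein-coding genes the 6 whose centred log2 profile over the 6 libraries was nearest to the mean of the 9 B cell genes were Tnfrsf8, F5, Scml4, Zfp97, Scn4a and Trim30b. Their root mean square differences were 0.27 to 0.32 on the log2 scale, and those of the 9 genes themselves 0.24 to 0.44. The 6 were picked for small differences, and each of the 9 is part of the mean. These ranges therefore cannot be compared. Tnfrsf8, the lymphocyte receptor CD30, had 5.79, 1.13 and 1.13 CPM in NM1 KO replicates 1 to 3, against 1.92, 2.59 and 1.72 CPM in WT replicates 1 to 3. Scn4a, a sodium channel best known from skeletal muscle, had 4.54, 0.580 and 0.291 CPM in NM1 KO, against 1.48, 1.57 and 1.08 CPM in WT. Scn4a is annotated 3829 bases from Cd79b on the same strand of chromosome 11. All 6 were highest in NM1 KO replicate 1, which their selection by this profile fixes.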

How the data were processed

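Per the labels' protocols, RNA of a small piece of visceral fat went into NEBNext Ultra II libraries read on a NextSeq. Per the submitters' processing notes HTSeq, HISAT2 2.0.4, SAMtools 0.1.19, FastQC and Trimmomatic 0.36 were used with build GRCm38 (mm10). The sources used here name neither the annotation nor the strand setting. The authors deposited raw whole-number counts per Ensembl gene, 1 file per library, with 0 entries that name no gene. Of 46603 identifiers 46091 were matched to GENCODE M21 for names, positions and exon lengths.

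Samples were grouped by genotype. All genes passing filterByExpr were fitted in edgeR 4.0.16 (R 4.3.3) with TMM, robust quasi-likelihood dispersion and genotype alone, two-sided, with Benjamini-Hochberg adjustment over 15828 genes and a threshold of 0.05. SE is the log2 fold change over the square root of F. CPM uses TMM-scaled sizes. The common coefficient of variation was 25.3%. The fit was tested on simulated data. Alternatives were other size factors, filters, dispersion, protein-coding genes only, a replicate block, each library left out, DESeq2 1.42.0, limma-voom (limma 3.58.1) and an offset for GC content and length. The 9 genes and all lists were chosen with earlier results of these data known. Named were the 9 genes, a few anchor genes, called genes of the lists or otherwise the most abundant, and the 6 nearest profiles, and not every gene so selected is printed. Some genes are not reported here.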

Additional observations from a re-analysis of the deposited data

How the results depend on the processing

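None of the 9 B cell genes was called under any of the 18 alternatives, and 145 of their 161 values kept their sign. Sign changes of these and other named genes, outside the fits that leave out a library, were as follows on the log2 scale. With the replicate block, Cd79a was -0.26, Cd79b -0.054, Ms4a1 -0.49, Blk -0.23 and Cxcl13 0.00039, while Pax5 was 0.78 and the median of the 9 was 0.042, against 0.55 without it. With limma-voom and quality weights, Cd79a was -0.62, Cd79b -0.36, Ms4a1 -0.76, Blk -0.46, Bank1 -0.050 and Cxcl13 0.34, and the median of the 9 was -0.050. With the offset for GC content and length, Bank1 was -0.18 and Tnfsf13b -0.12, and Ms4a1 was 0.076, against 0.55 without it. The cause was not tested.

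Leaving out 1 library at a time, the median of the 9 lay between -0.44 (without NM1 KO replicate 1) and 1.04. The ranges were -1.13 to 0.87 for Cd79a, -0.88 to 0.91 for Cd79b, -1.56 to 1.04 for Ms4a1, -0.17 to 2.17 for Pax5, -1.10 to 0.91 for Blk and -0.44 to 0.52 for Bank1. They were -0.66 to 1.04 for Igkc, -0.48 to 0.66 for Ighm, -1.22 to 0.50 for Jchain, -0.89 to 0.83 for Cxcl13 and -0.077 to 0.30 for Tnfsf13b. Calls over all genes numbered 1 to 1654, and calls among the 135 tested genes of the other lists, 7 with all libraries, numbered 0 to 16. The replicate block gave 336 calls over all genes, DESeq2 2198 and limma-voom 1648; in the lists DESeq2 gave 31 and limma-voom 11. Same-numbered libraries of the 2 groups deviated together by an r of -0.0755, -0.0475 and 0.162 across genes, against -0.0916 to 0.118 for differently numbered ones. Not every library correlated best with its own number. Such correlations cannot tell whether same-numbered libraries shared a batch or a pairing, which the labels do not state. Cr2 did not pass the CPM filter (1 CPM or more in 3 or more libraries), and DESeq2 gave no p for Ms4a1. Depth limits Cr2 most, with 4 to 14 counts in 5 of the 6 libraries.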
